A study of Homo sapiens with 6 samples.

Results

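The genes described here are 10 genes of the ATF4 arm of the integrated stress response, measured by RNA-seq in SK-N-BE(2) cells, an established human neuroblastoma cell line. They are ATF4, ATF5, DDIT3, ASNS, TRIB3, CHAC1, PSAT1, PHGDH, SESN2 and DDIT4, chosen by name and found by their Ensembl identifiers among the 58302 genes of each deposited table. All 10 averaged 1 FPKM or more (fragments per kilobase of exon, relative to sequencing depth) over the 6 samples, as did 14462 genes in all, which were the genes tested. The 3 samples of the first group, numbered 1 to 3, came from cells transfected with a negative control siRNA (NC), and the 3 of the second, with the same numbers, from cells transfected with siRNA against Prp19 (siPrp19). The cells of both groups were grown in MEM/F12 with 10% serum. The labels place harvest 72 h after transfection, while the text of the study gives a shorter time. The siRNA lowers the mRNA of PRPF19, which encodes the splicing factor and ubiquitin ligase Prp19, and does not remove the gene. Every sample came from 1 cell line, and what a shared replicate number stands for (a day, a passage or a batch) is not given, so p-values measure the spread between these samples. Each gene was therefore read in 2 ways: as the difference between replicate numbers, averaged over both groups, and as the difference siPrp19 minus NC within same-numbered pairs.

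The integrated stress response begins with kinases that phosphorylate the translation factor eIF2 when amino acids run short, unfolded protein collects in the endoplasmic reticulum, heme is lacking or double-stranded RNA appears. General translation then falls, while the mRNA of the transcription factor ATF4 is translated more, so that the level of ATF4 mRNA alone does not measure ATF4 protein. ATF4 binds DNA with C/EBP partners and switches on genes of amino acid supply, redox balance, growth arrest and, under lasting stress, cell death. In MYCN-amplified neuroblastoma the same transcription factor is known to act on serine and glycine synthesis.

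The DNA element through which ATF4 acts was looked for near the starts of the 10 genes, because it is the sequence that would tie them together. In a RefSeq table of promoter windows on GRCh38.p14 (250 bases before to 50 after each start) the C/EBP-ATF response element TGATGNAA, searched on both strands, was found for 2 of the 10 genes, ASNS and CHAC1, and for 4.46% of the 27305 genes in the table. The cAMP response element TGACGTCA was found for 0 of the 10 and for 2.25% of the genes in the table. The windows around both matches are given 5′ to 3′ on the strand of the gene, with the match in capitals. The ASNS match reads as written and lies 68 to 61 bases before the start, at chr7:97872458-97872487 for the window on the minus strand, and the CHAC1 match is on the opposite strand, 209 to 202 bases before the start, at chr15:40953251-40953280 for the window on the plus strand. Both windows overlap the 5′ untranslated part of the first exon of other annotated transcripts of the same genes, which start further upstream.
ASNS: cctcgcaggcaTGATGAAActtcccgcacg
CHAC1: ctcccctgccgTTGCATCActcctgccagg
A match describes only the letters of this window, and elements outside it, such as those in introns, were not searched.

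The libraries held 19058781 to 24181789 reads on genes, as recovered from the deposited values. PRPF19 was at 53.1, 53.1 and 64.9 FPKM in NC samples 1, 2 and 3 and at 21.8, 28.5 and 33.6 FPKM in siPrp19 samples 1, 2 and 3, so the siPrp19 mean was 49.0% of NC and the labels held in 3 of 3 pairs. All 10 adrenergic neuroblastoma markers were above 1 FPKM in every sample, as were 5 of 6 mesenchymal neuroblastoma markers (VIM at 181 to 230 FPKM), with PRRX1 below. Of the blood markers, CD3E was at 0, PTPRC at 0.04 to 0.12 and CD14 at 0.42 to 1.30 FPKM, the last highest in siPrp19 sample 3. Both endothelial markers were below 0.08 FPKM, and of the epithelial markers KRT5 was at 0 and EPCAM at 1.34 to 2.48 FPKM. The samples numbered 3 stood apart from the other four along the first principal component, which held 49.9% of the variance. In these samples the FPKM of the 13 protein genes of mitochondrial DNA summed to 45384 (NC) and 47754 (siPrp19), against 19379 to 21972 in the other samples. The adrenergic marker DBH, which makes noradrenaline, was at 3.49 (NC) and 3.94 FPKM (siPrp19) in them, against 26.7 to 44.2 FPKM in the others. DBH was picked out after its values were seen, and the adrenergic markers did not move alike. In the samples numbered 3 TH was also lower, at 148.1 (NC) and 142.6 FPKM (siPrp19) against 194.4 to 242.5 FPKM. MYCN (1167 and 1104 against 801 to 1215 FPKM) and CHGA (91.1 and 81.5 against 73.5 to 121.4 FPKM) lay within the range of the others. The part of mitochondrial RNA or of the state of the cells in the differences between replicate numbers was not tested.

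DDIT4, an inhibitor of mTORC1 signalling also called REDD1, had the highest mean level in NC, 248.1 ± 181.0 FPKM (SD, n = 3), followed by ATF4 itself with 186.2 ± 45.3 FPKM (SD, n = 3). Their samples overlapped: DDIT4 was above ATF4 in the samples numbered 1 and 2 and below it in both samples numbered 3. The serine synthesis enzymes PSAT1 (41.5 ± 19.9 FPKM) and PHGDH (28.8 ± 3.12 FPKM) came next and overlapped each other, and both stayed below every ATF4 value. DDIT3, the gene of the transcription factor CHOP, was at 16.9 ± 6.65 FPKM, and every NC value of it lay below those of PHGDH and above those of SESN2. The remaining NC means were 5.12 ± 1.5 FPKM for SESN2, 4.74 ± 1.37 for TRIB3, 2.85 ± 2.11 for CHAC1, 2.3 ± 0.498 for ATF5 and 1.22 ± 0.309 for ASNS (SD, n = 3). Neighbours among SESN2, TRIB3, CHAC1 and ATF5 overlapped in their NC samples, whereas every NC value of ASNS lay below those of ATF5. The order of the means was the same with siPrp19. These levels are per exon base, and PHGDH is divided by an exon length of 9217 bases in GENCODE 29, the longest of the 10, against 2058 for DDIT4 and for CHAC1. The lowest genes rest on few reads, 77 to 160 per sample for ASNS, 62 to 364 for CHAC1 and 103 to 180 for ATF5.

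**Figure D1:**
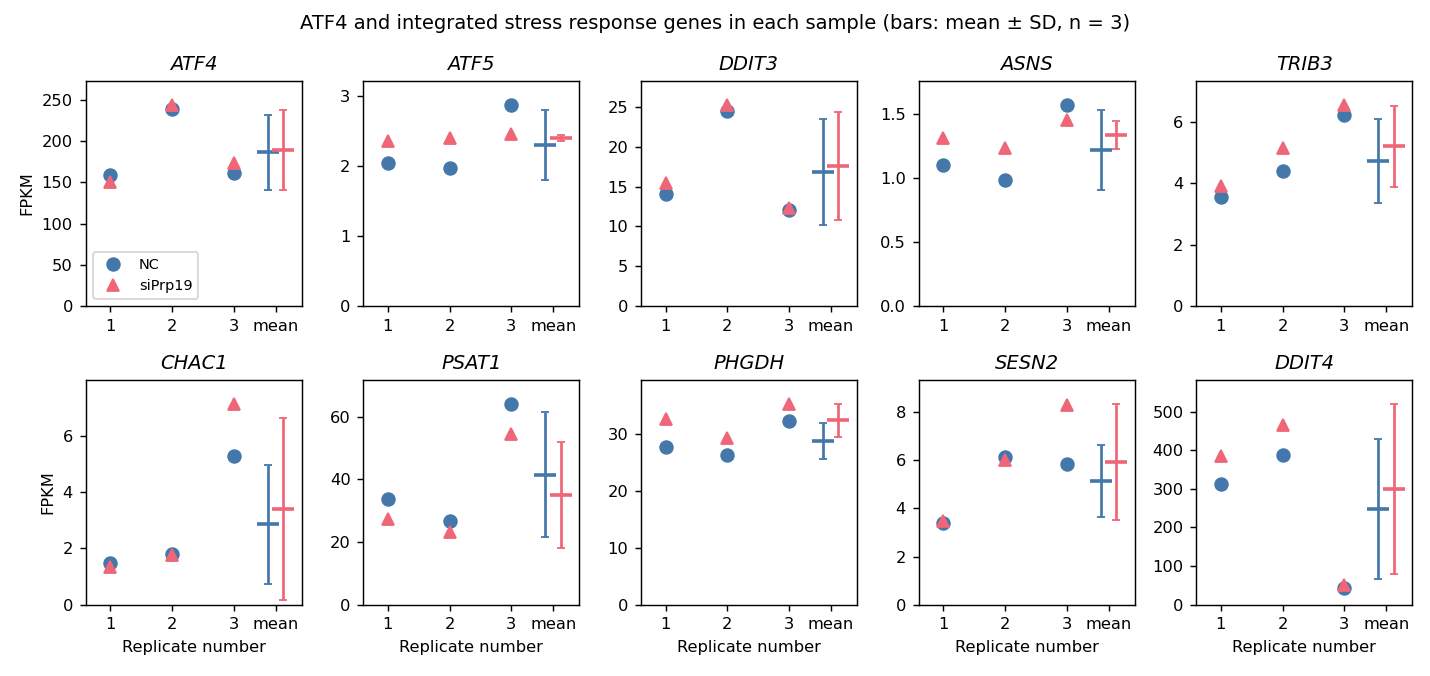
FPKM (vertical axes, from 0) of the 10 genes in NC (circles) and siPrp19 (triangles) samples by replicate number, with the mean ± SD of each group (n = 3) at the right of each panel. In most panels the circle and the triangle of one number lie closer together than the numbers do: DDIT4 is at 43.5 and 51.0 FPKM in the samples numbered 3 and at 313.7 to 466.0 FPKM in the others.

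The level of most of these genes depended on the replicate number. With limma's F test for replicate number, in a fit that also held the treatment, 8 of the 10 genes passed an adjusted p of 0.05, all except ATF5 and ASNS, beside 49.6% of all genes tested. Among genes averaging 5 FPKM or more, fitted on their own, 6 of the 6 members passed beside 71% of genes, so a high share of calls was common to expressed genes and not particular to this group. In 8 of the 10 genes the same number was highest and the same number lowest in NC and in siPrp19, beside 55% of all genes tested. The gap between the highest and lowest replicate number had a median of 0.88 over the 10 genes on the log2(FPKM + 0.1) scale, and of 0.46 over all genes tested. The genes did not move as a block: replicate 3 was the highest in 7 of them and the lowest in 2, and replicate 2 was the highest in the other 3. Of the 8 that passed, replicate 3 was the highest in 5 and replicate 2 in 3, beside 42.7% and 43.3% of all genes that passed, and replicate 3 was the lowest in 2, beside 42.2%.

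The transcription factors came first. ATF4, the regulator of the group, was at 158.9, 238.5 and 161.2 FPKM in NC samples 1, 2 and 3, and at 149.7, 243.4 and 173.8 FPKM in siPrp19 samples 1, 2 and 3. Replicate 2 was the highest in both groups, at 1.5-fold the mean of the other numbers (adjusted p = 0.00449, limma's F test). DDIT3 encodes CHOP, which promotes cell death under lasting stress. It was at 14.1, 24.4 and 12.1 FPKM in NC and at 15.4, 25.2 and 12.3 FPKM in siPrp19. Replicate 2 was again the highest and replicate 3 the lowest, with a gap of 1.02 on the log2 scale (adjusted p = 0.00206). On 31.6% of its exon bases DDIT3 shares the locus with other genes, mainly MARS on the opposite strand. MARS, the methionyl-tRNA synthetase, was highest where DDIT3 was lowest (9.86, 8.27 and 24.6 FPKM as means of replicates 1, 2 and 3). Whether the counting used strand is not given in the sources used here, so reads of these genes cannot be fully told apart. ATF5, a related factor that is also controlled by translation, was at 2.05, 1.98 and 2.88 FPKM in NC and 2.37, 2.41 and 2.46 FPKM in siPrp19. Replicates 1 and 2 of ATF5 overlapped and both replicate 3 values lay above them, but the gap of 0.27 did not pass the test (adjusted p = 0.324), and 23.7% of its exon bases are shared with other genes.

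TRIB3, a pseudokinase that ATF4 and CHOP induce and that in turn restrains them, was at 3.56, 4.42 and 6.24 FPKM in NC samples and at 3.92, 5.17 and 6.55 FPKM in siPrp19 samples. Replicate 1 was the lowest and replicate 3 the highest in both groups (gap 0.76, adjusted p = 0.0061). CHAC1 encodes an enzyme that breaks down glutathione. It was at 1.47, 1.79 and 5.28 FPKM in NC and at 1.33, 1.78 and 7.13 FPKM in siPrp19. Replicate 3 stood 3.90-fold above the mean of the other numbers, a gap of 2.06 between highest and lowest (adjusted p = 0.00339), and the samples numbered 3 did not overlap the rest.

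The amino acid enzymes were each highest in replicate 3 and lowest in replicate 2 in both groups, and differed in the size of the gap. PSAT1, the aminotransferase of serine synthesis, was at 33.9, 26.7 and 64.1 FPKM in NC samples and at 27.5, 23.3 and 54.5 FPKM in siPrp19 samples. Replicate 3 was 2.13-fold the mean of the others (gap 1.24, adjusted p = 0.00104). PHGDH, the dehydrogenase that opens the same pathway, was at 27.8, 26.3 and 32.3 FPKM in NC and at 32.6, 29.4 and 35.2 FPKM in siPrp19. Its gap between numbers was only 0.28 (adjusted p = 0.0309), and the call was lost in 7 of 12 alternative fits (adjusted p = 0.0590 to 0.13), among them each fit without 1 of the 6 samples and the robust fit. ASNS, asparagine synthetase, was at 1.10, 0.98 and 1.57 FPKM in NC and at 1.31, 1.23 and 1.45 FPKM in siPrp19. The ASNS gap of 0.42 did not pass the test (adjusted p = 0.324). A lncRNA gene on the same strand, AC079781.5, covers 44.6% of the exon bases of ASNS, so its low values are uncertain.

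SESN2 and DDIT4 both encode brakes on mTORC1, the kinase complex that drives growth, and they differed in replicate 3, where DDIT4 was at its lowest and SESN2 was not. SESN2, a leucine sensor, was at 3.40, 6.12 and 5.86 FPKM in NC samples and at 3.47, 6.02 and 8.30 FPKM in siPrp19 samples. Replicate 1 was the lowest in both groups (gap 1.00, adjusted p = 0.0110), and the adjusted p was 0.0553 without siPrp19 sample 1. DDIT4 was at 313.7, 387.2 and 43.5 FPKM in NC and at 383.9, 466.0 and 51.0 FPKM in siPrp19. The samples numbered 3 were thus at 0.122 of the mean of the other numbers, averaged over both groups. The gap of 3.17 ranked DDIT4 number 128 of the 14462 genes by size, and its F test ranked it number 1 (adjusted p = 0.000393). DDIT4 shares 41.2% of its exon bases with DDIT4-AS1 on the opposite strand, which was listed at 0 in all 6 samples.

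DDIT4 is also a target of hypoxia signalling, and a list of 15 hypoxia targets was read beside it. Of these, 14 passed the F test, beside 49.6% of all genes tested, and each of the 14 was highest in replicate 2 and lowest in replicate 3, as DDIT4 was and as were 33.6% of all genes that passed. VEGFA, the angiogenic growth factor, had means of 141.8, 231.8 and 19.9 FPKM in replicates 1, 2 and 3, and NDRG1, a stress and hypoxia marker, had 179.3, 366.5 and 24.5 FPKM. LDHA was the gene of the list that did not pass (6.74, 6.49 and 7.61 FPKM). The median deviation of the list from the gene means was 0.54, 1.20 and -1.70 in replicates 1, 2 and 3 on the log2 scale, while DDIT4 deviated by 0.86, 1.15 and -2.02. Oxygen supply and cell density are not among the labels, and their part in the DDIT4 difference was not tested. PSAT1 and CHAC1 ran against DDIT4 over the 6 samples (Pearson r = -0.98 and -0.96), which is a description of 6 samples that share 3 replicate numbers.

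**Figure D2:**
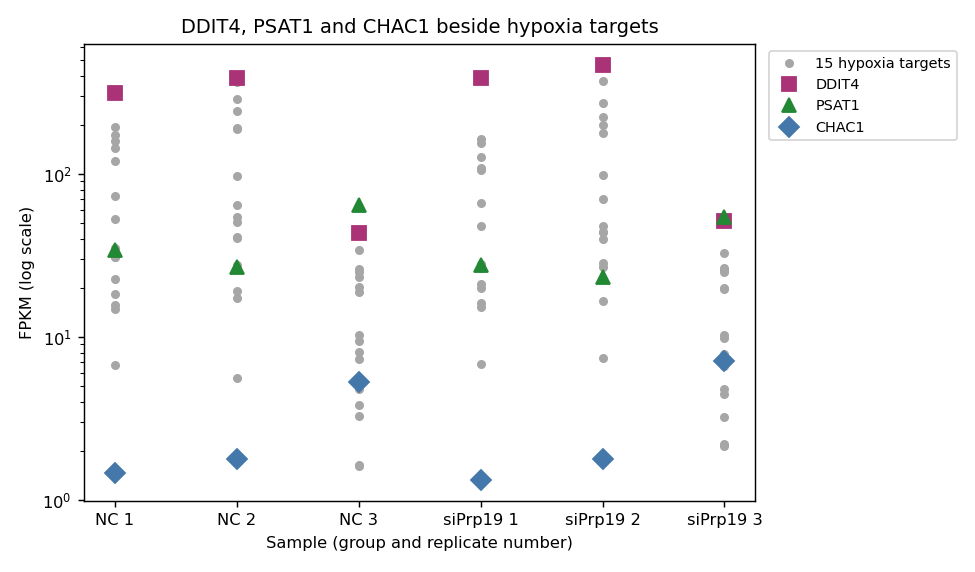
FPKM on a log axis in each of the 6 samples for DDIT4 (squares), PSAT1 (triangles), CHAC1 (diamonds) and 15 hypoxia targets (grey points). In both samples numbered 3 DDIT4 falls to 43.5 and 51.0 FPKM and the cloud of hypoxia targets moves down, while PSAT1 and CHAC1 are at their highest.

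The differences between siPrp19 and NC were small beside those between replicate numbers. Without regard to pairs, limma called 0 of the 10 genes beside 0% of all genes tested (225 of 14462 had an unadjusted p under 0.05), and the adjusted p was 1.00 for each member. In 0 of the 10 genes did the siPrp19 samples lie wholly above or below the NC samples, beside 2.77% of all genes wholly above and 2.84% wholly below. The median log2 difference, siPrp19 minus NC, was 0.12 over the 10 genes and -0.0040 over all genes tested, and over the 10 genes it was -0.035 without NC sample 1, 0.25 without NC sample 3 and 0.067 without siPrp19 sample 3. With the replicate number as a block, limma again called 0 of the 10 genes beside 0% of all genes (2265 with an unadjusted p under 0.05), but the standard errors shrank, with a median of 0.31 without and 0.06 with the block over the 10 genes, and of 0.21 and 0.08 over all genes. Neither fit called PRPF19, the target of the siRNA (log2 difference -1.04, adjusted p = 0.19 in limma with the block). A count of 0 in these fits therefore does not show that a gene was unchanged.

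Within pairs, PSAT1 was lower with siPrp19 in 3 of 3 pairs, the only one of the 10 genes to be so, beside 21.3% of all genes tested. DDIT3, TRIB3, PHGDH and DDIT4 were higher in 3 of 3 pairs, 4 of the 10 genes beside 19.2% of all genes. A sign test over 3 pairs cannot reach the threshold, so these counts are a description.

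DDIT4 had the most even change. Its siPrp19 samples were above NC by 22.4%, 20.4% and 17.3% in pairs 1, 2 and 3, or 0.29, 0.27 and 0.23 on the log2 scale, although its level differed 9.02-fold between replicate numbers. The mean difference was 0.26 with an SE of 0.038 in the blocked fit (95% interval 0.16 to 0.36, adjusted p = 0.19) and an SE of 1.11 without the block. DDIT4 was called in the blocked fit run on genes averaging 5 FPKM or more (adjusted p = 0.0483), 1 of 6 members beside 0.43% of genes called higher there.

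PSAT1 differed by -0.30, -0.19 and -0.23 in pairs 1, 2 and 3, with a mean of -0.24 and an SE of 0.046 with the block (95% interval -0.36 to -0.13, adjusted p = 0.196). PHGDH, the enzyme before it in the pathway, differed the other way by 0.23, 0.16 and 0.13 (mean 0.17, SE 0.046, 95% interval 0.05 to 0.29, adjusted p = 0.223). When limma voom with the block was run on the reads recovered from the FPKM, these 3 genes were called: PSAT1 fell (adjusted p = 0.00986), and PHGDH (adjusted p = 0.0281) and DDIT4 (adjusted p = 0.000496) rose. That is 1 of 10 lower beside 4.6% of all genes called lower, and 2 of 10 higher beside 2.97% called higher. All 3 are among the 6 members averaging 5 FPKM or more. Of all 7913 genes at that level, the same fit called 529 lower and 300 higher, larger shares than over all genes. The calls thus depend on the fit, while the differences in voom were -0.24, 0.18 and 0.27 for PSAT1, PHGDH and DDIT4.

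For ATF4 the pair differences were -0.09, 0.03 and 0.11, with a mean of 0.02 and a 95% interval of -0.11 to 0.15 in the blocked fit, which leaves room for changes in ATF4 mRNA of that size and says nothing on its translation. DDIT3 differed by 0.13, 0.05 and 0.02 (95% interval -0.06 to 0.20). TRIB3 differed by 0.13, 0.22 and 0.07 (95% interval -0.03 to 0.31). The upper bounds of these 3 genes lay below their gaps between replicate numbers.

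The other 4 genes were not steady across pairs. CHAC1 differed by -0.14, -0.01 and 0.43 in pairs 1, 2 and 3 (95% interval -0.27 to 0.45), and SESN2 by 0.03, -0.02 and 0.50 (95% interval -0.14 to 0.48). In both genes the pair numbered 3 held the largest difference, and without it the other pairs lay near 0 or below. ATF5 differed by 0.20, 0.27 and -0.22 (95% interval -0.26 to 0.43) and ASNS by 0.24, 0.30 and -0.11 (95% interval -0.35 to 0.63). In both of these the pair numbered 3 went against the other pairs.

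**Figure D3:**
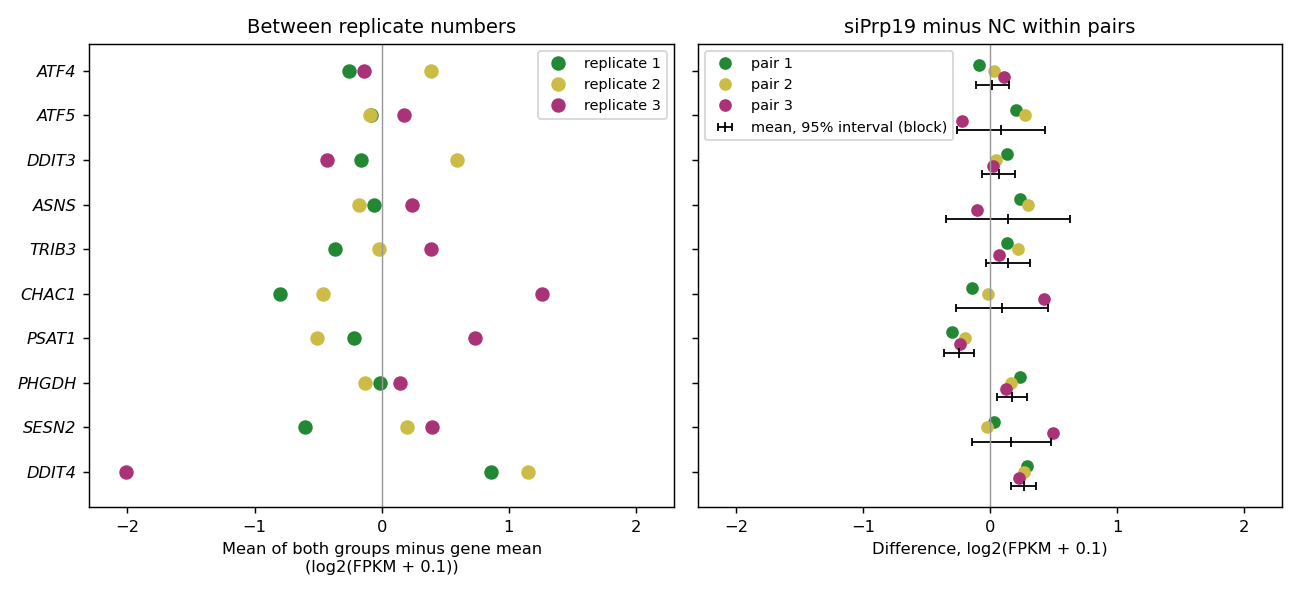
Log2(FPKM + 0.1) differences of the 10 genes on axes of the same width: left, the mean of both groups in each replicate number minus the mean of the gene; right, siPrp19 minus NC in each pair, with the mean and its 95% interval from the blocked limma fit (black, not adjusted for the number of genes). The spread at the left reaches from -2.02 to 1.26, and the pair differences at the right from -0.30 to 0.50.

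The sum of squares of each gene was divided between replicate numbers, treatment and the remainder within pairs. The median shares of the 10 genes were 94.5%, 4.12% and 1.87%, beside 80.9%, 5.68% and 7.0% over all genes tested. DDIT4 was at one end, with 99.2% of its variation between replicate numbers, 0.835% with treatment and 0.0079% left over. PHGDH had the highest share with treatment, 35.8%, beside 61.9% between replicate numbers. ATF5 had the largest remainder, 40.1%. ATF4 had 97.9% between replicate numbers and 0.095% with treatment.

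**Figure D4:**
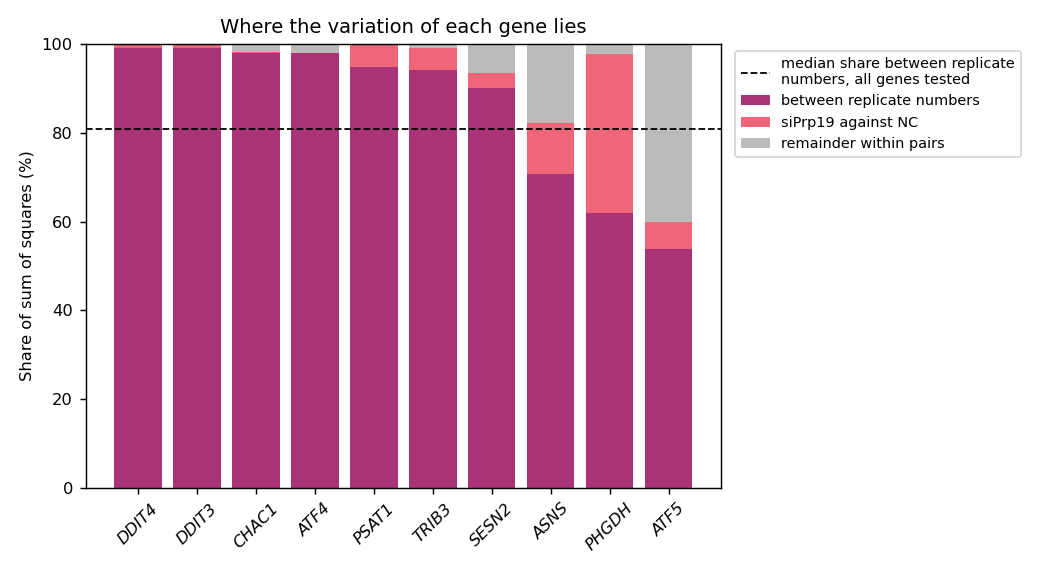
Share of the sum of squares of log2(FPKM + 0.1) over the 6 samples (percent, stacked from 0 to 100) between replicate numbers, between siPrp19 and NC, and left within pairs, for each of the 10 genes. The dashed line is the median share between replicate numbers over all genes tested, 80.9%, and ATF5, ASNS and PHGDH are the genes below it.

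The 10 genes had no common profile. Of their 45 pairs, 6 had a Pearson r above 0.8 over the 6 samples and 4 an r below -0.8, from -0.98 for PSAT1 with DDIT4 to 0.95 for ATF5 with ASNS. ATF4 ran with DDIT3 (r = 0.89), and CHAC1 ran with TRIB3 (r = 0.91) and PSAT1 (r = 0.89). The mean of the 10 centred profiles correlated with its own members from -0.32 (DDIT4) to 0.92 (SESN2). The genes outside the list, averaging 5 FPKM or more, that were most like this mean were RBMX2 (r = 0.998), PCMT1 (r = 0.996), FKBP4 (r = 0.994), SARS (r = 0.990) and DDAH2 (r = 0.988), where SARS is the seryl-tRNA synthetase, itself among the listed synthetases. All these r values are over 6 samples that share 3 replicate numbers.

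Other genes of the pathway were read from 9 lists, in which limma called 0 genes with or without the block. The median log2 difference, siPrp19 minus NC, ran from -0.16 (p53 targets) to 0.04 (aminoacyl-tRNA synthetases) over the lists. The counts of siPrp19 differences that follow are those of limma voom with the block, to be read against 4.6% of all genes called lower and 2.97% called higher. Of the 7913 genes averaging 5 FPKM or more, that fit called 529 lower and 300 higher. The counts for replicate number are to be read against 49.6% of all genes passing the F test. Among genes averaging 5 FPKM or more, 63.2% passed in the same fit, so the share rises with expression. Upstream of ATF4, the 24 genes of the eIF2 kinases, eIF2, eIF2B and its phosphatases held 1 lower gene, EIF2S1, the eIF2 subunit that is phosphorylated (log2 difference -0.20, adjusted p = 0.0248), and 1 higher gene, PPP1CC, a catalytic subunit of the phosphatase (0.17, adjusted p = 0.0318). PPP1R15B, the constitutive partner of that phosphatase, differed by -0.17 and EIF2S2 by 0.16, and neither passed. By replicate number 15 of the 24 passed the F test. PPP1R15A (GADD34), the stress-induced phosphatase partner and an ATF4 target, was picked out after its values were seen and followed ATF4, with means of 12.4, 31.9 and 17.4 FPKM in replicates 1, 2 and 3.

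Among 19 tested bZIP factors, the family that pairs with ATF4, 2 were lower with siPrp19. FOSL1 differed by -0.71 (adjusted p = 0.000163) and FOS by -0.36 (adjusted p = 0.0183), both AP-1 subunits and lower in 3 of 3 pairs. ATF6 differed by 0.12 and ATF7 by 0.05, without passing. By replicate number 17 of the 19 passed, and 12 of these were highest in replicate 2, beside 43.3% of all genes that passed.

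The amino acid genes around PSAT1, PHGDH and ASNS gave 3 lists. Of 10 tested serine, glycine and folate enzymes, 0 differed with siPrp19, with GCSH (-0.28), PSPH (-0.17), GCAT (0.10) and SDSL (0.36) at the ends, and 5 passed for replicate number. PSPH, which completes serine synthesis after PSAT1, followed it by number, with means of 6.49, 4.02 and 8.81 FPKM. SHMT2, the mitochondrial serine hydroxymethyltransferase, was picked out after its values were seen and ran the other way, with 104.4, 119.4 and 49.9 FPKM. Of 20 amino acid synthesis and uptake targets, 3 were lower with siPrp19: SLC7A11, the cystine transporter (-0.65, adjusted p = 1.17e-05), SLC38A2, a glutamine and alanine carrier (-0.29, adjusted p = 0.000797), and BCAT1 (-0.20, adjusted p = 0.00749). At the upper end CBS (0.05) and GPT2 (0.08) did not pass. For replicate number 14 of the 20 passed, and 10 of these were highest in replicate 3, beside 42.7% of all genes that passed. Of 21 genes of the cytosolic aminoacyl-tRNA synthetases and XPOT, 2 were higher with siPrp19, AARS (0.23, adjusted p = 0.00304) and KARS (0.21, adjusted p = 0.00854), while GARS (-0.14) and XPOT (-0.09) did not pass. By number 18 of the 21 passed, 11 of them highest in replicate 3 (42.7% over all genes that passed).

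Of 20 other ATF4 targets, 3 were lower with siPrp19, namely STC2 (-0.24, adjusted p = 0.00331), SLC6A6 (-0.21, adjusted p = 0.0248) and SQSTM1 (-0.24, adjusted p = 0.0385), and 1 was higher, BBC3, the BH3-only protein PUMA (0.46, adjusted p = 0.0199). GDF15, a stress cytokine, and CHAC2, the close relative of CHAC1, had the lowest means (both -0.74) and TRIB1 the next highest (0.19), with none of them passing. GDF15 had means of 1.03, 3.59 and 6.60 FPKM in replicates 1, 2 and 3, with replicate 1 the lowest and replicate 3 the highest, as in TRIB3. By number 17 of the 20 passed, of which 8 were lowest in replicate 3, a share near the 42.2% of all genes that passed. In the ATF6 and XBP1 arms of the unfolded protein response, 2 of 19 genes were lower with siPrp19, HSPA5, the chaperone BiP (-0.18, adjusted p = 0.0226), and HERPUD1 (-0.21, adjusted p = 0.0336). EDEM1 (-0.22), SYVN1 (0.09) and CRELD2 (0.12) did not pass. By number 15 of the 19 passed, 12 of them highest in replicate 3 (42.7% over all genes that passed), among them HSPA5 with 59.7, 89.2 and 129.2 FPKM. Among the hypoxia targets read beside DDIT4, 2 were lower with siPrp19, EGLN3 (-0.22, adjusted p = 0.00868) and VEGFA (-0.16, adjusted p = 0.0245), and 1 was higher, CA9 (0.38, adjusted p = 0.00193). LDHA differed by 0.17 without passing.

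**Figure D5:**
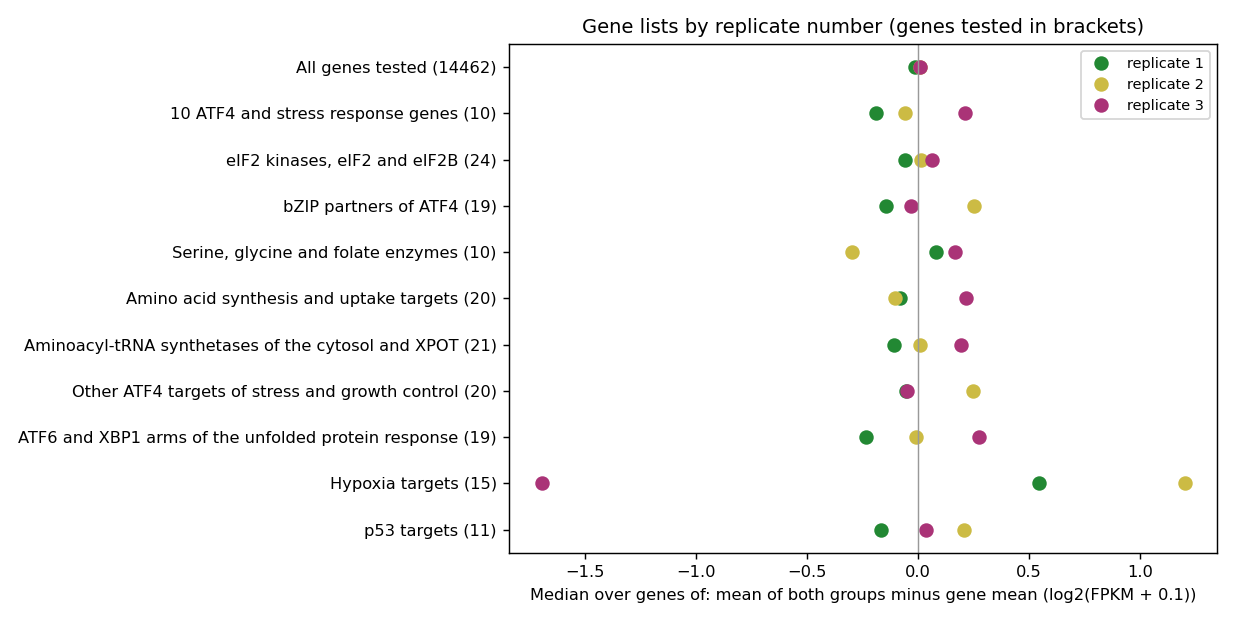
Median over the genes of each list of the deviation of replicates 1, 2 and 3 (mean of both groups) from the gene mean on the log2(FPKM + 0.1) scale, with the number of genes tested in brackets. The hypoxia list spans from -1.70 to 1.20, all genes tested stay near 0, and the 10 ATF4 genes lie at -0.19, -0.06 and 0.21.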

How the data were processed

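RNA-seq was made from 3 NC and 3 siPrp19 samples of SK-N-BE(2) cells. The authors deposited 1 table of FPKM values per sample, and the submitters' processing notes name hg38, HISAT2 2.0.5 and featureCounts 1.5.0-p3, while the annotation release is not given in the sources used here. Symbols and exon lengths were taken from GENCODE 29, which held 58039 of the 58302 identifiers. FPKM times exon length gave whole reads (within 0.05) for 95.9% of the genes that were not 0 in all samples. As an alternative, limma voom was run on these reads. Genes without whole reads, DDIT3 among them, were kept in it with values rounded to the nearest read. Median-of-ratios factors were equal in all samples. Genes averaging 1 FPKM or more were tested as log2(FPKM + 0.1) with limma 3.58.1 (eBayes with trend, R 4.3.3) and Benjamini-Hochberg adjustment over all 14462 genes, without a block, since the study names none. Fold changes on this scale understate those of low genes. The replicate numbers of the labels were used as a block or, for differences between numbers, in an F test. Deviations from group means correlated across genes between same-numbered samples (r = 0.38, 0.57 and 0.64, highest with another number 0.05), so the numbers were treated as pairs. The 95% intervals are from limma and unadjusted. The 10 genes, the gene lists and the tests were chosen with earlier results of these data known. Named genes were the 10 members, PRPF19, the 2 highest and 2 lowest siPrp19 differences of each list and the 5 genes most like the members, and others are named for a call, for a position by replicate number or where stated. Figures were drawn with matplotlib 3.10.9. Counting error alone does not cover PCR duplicates or differences between cultures.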

Additional observations from a re-analysis of the deposited data

How the results depend on the processing

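The count of genes called for siPrp19 against NC was 0 in limma without a block and in most alternatives, 1 with eBayes without trend and robust, 124 with the replicate block and a mean of at least 5 FPKM, and 1093 with limma voom on recovered reads and the replicate block. The members called were 0, and 1 and 3 in the last 2 of these fits. With the replicate block alone the count stayed at 0 for members and for all genes. Leaving out each sample in turn left both counts at 0, but it turned the unpaired difference of 8 members, which ran from -0.18 to 0.21 for ATF4, -0.0098 to 0.25 for ATF5, -0.22 to 0.37 for DDIT3, -0.040 to 0.36 for TRIB3, -0.62 to 0.64 for CHAC1, -0.61 to 0.12 for PSAT1, -0.12 to 0.50 for SESN2 and -0.74 to 1.28 for DDIT4, since the sample left out unbalances the replicate numbers. ASNS (0.01 to 0.33) and PHGDH (0.11 to 0.26) kept their sign. Leaving a replicate number out of both groups, chosen after seeing the data and with or without the block, turned ATF4 to -0.028 and CHAC1 to -0.076 without replicate 3, and ATF5 to -0.0093 without replicate 2. Of 222 values for members under these alternatives 194 kept direction and side of the threshold, 24 turned and 4 passed it anew. The members' median difference was 0.116 with all samples, 0.0893 without replicate 2 and 0.133 without replicate 3 of both groups, but with single samples left out it turned to -0.035 without NC replicate 1, rose to 0.25 without NC replicate 3 and was 0.067 without siPrp19 replicate 3. For replicate number, 7175 genes were called, and 4120 to 5563 when 1 sample was left out, lowest without siPrp19 replicate 2 (4120) and NC replicate 2 (4392). Members called were 6 to 7 in those fits. The highest replicate number of each member was the same under TPM, quantile normalization and recovered reads, and FPKM as deposited equal the scaled values up to a constant. The lowest number was also the same, except that under quantile normalization it moved from replicate 2 to replicate 1 for ATF5 and ASNS.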

Other observations

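Genes of the p53 response, some of which are shared with stress signalling, were read as a further list. Of 11 tested, limma with or without the block called 0. In limma voom with the replicate block 2 were lower with siPrp19, beside 4.6% of all genes and 529 of the 7913 averaging 5 FPKM or more. They were CDKN1A, the cell cycle inhibitor p21 (log2 difference -0.56, adjusted p = 0.000331), and MDM2 (-0.36, adjusted p = 0.000765), each in 3 of 3 pairs. FDXR (0.21) and TP53I3 (0.15) were at the upper end and did not pass. CDKN1A was at 5.89, 12.9 and 5.57 FPKM in NC samples 1, 2 and 3 and at 3.43, 8.18 and 4.65 FPKM in siPrp19 samples 1, 2 and 3, highest in replicate 2 in both groups. By replicate number 8 of the 11 passed the F test, beside 49.6% of all genes tested and 63.2% of those averaging 5 FPKM or more.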
